A study of Mus musculus with 16 samples.

Results

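Coupling factors are signals by which bone-resorbing osteoclasts act on the cells that form bone. The 10 genes described here were chosen by symbol as secreted or membrane signals from osteoclasts to osteoblasts: Sema4d, Sphk1, Cthrc1, Bmp6, Wnt10b, C3, Efnb2, Lif, Pdgfb and Slit3. All 10 were found among the 21936 genes of the count table, and 7 of them passed the filter on low counts and were tested, with 12093 genes tested in all. The sequenced RNA came from ex vivo osteoclast cultures, started with CD11b-positive marrow cells from C57BL/6J mice. There are 16 libraries, 4 replicates for each of 4 genotypes. These are WT, Ptprc KO, FLT3 ITD and FLT3 ITD Ptprc KO, the double mutant. In Ptprc KO the gene for the phosphatase CD45 is knocked out. In FLT3 ITD an internal tandem duplication knocked into Flt3 makes this receptor kinase active without its ligand. All cultures received M-CSF at 50 ng/ml for 3 days and then RANKL at 20 ng/ml as well, and RNA was collected between day 3 and day 5, once mature osteoclasts were first seen. No source used here gives the harvest day culture by culture, so its part in any difference below was not tested. Nothing in the labels says that the 4 replicates came from separate mice, so the p-values reflect only how far these cultures differ, which may be technical. No osteoblasts are part of the design, and only RNA was measured.

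Bone remodelling couples resorption to formation. Osteoclasts dissolve mineral and matrix, and through released or membrane-bound signals they recruit, stimulate or restrain osteoblasts and their precursors. Of the genes here, Sema4d encodes a membrane semaphorin that restrains osteoblasts through plexin-B1, and Efnb2 encodes ephrin-B2, a membrane ligand of the receptor EphB4 on osteoblasts. Sphk1 encodes a kinase that makes the lipid signal sphingosine 1-phosphate. C3, Lif, Pdgfb, Cthrc1, Bmp6, Wnt10b and Slit3 encode secreted proteins, of which C3 is cleaved to the anaphylatoxin C3a, LIF is an interleukin-6 family cytokine, and Pdgfb gives the platelet-derived growth factor PDGF-BB.

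Efnb2, Lif and C3 are the members whose promoters are shown, because Efnb2 and Lif varied together over the libraries and C3 varied the opposite way. The sequences lie upstream of the annotated start in the RefSeq promoter table (build GRCm38.p6), written 5′ to 3′ on the gene's strand without bases annotated as exon. The stretches are chr8:8661243-8661492 (minus strand) for Efnb2, chr11:4257318-4257556 (plus strand) for Lif and chr17:57228137-57228386 (minus strand) for C3. Capitals mark matches, on either strand, to the AP-1 motif TGANTCA or the NFAT core TGGAAA, factors known to act downstream of RANKL.
Efnb2: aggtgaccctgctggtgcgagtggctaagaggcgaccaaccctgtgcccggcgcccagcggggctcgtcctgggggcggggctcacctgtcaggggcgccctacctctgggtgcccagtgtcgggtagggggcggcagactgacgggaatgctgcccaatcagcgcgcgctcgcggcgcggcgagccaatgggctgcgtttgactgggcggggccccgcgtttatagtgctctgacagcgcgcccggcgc
Lif: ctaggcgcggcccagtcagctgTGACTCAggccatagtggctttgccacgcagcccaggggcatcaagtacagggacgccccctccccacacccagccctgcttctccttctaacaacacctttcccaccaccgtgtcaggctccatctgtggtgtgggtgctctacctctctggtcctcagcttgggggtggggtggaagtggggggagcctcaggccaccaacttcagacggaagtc
C3: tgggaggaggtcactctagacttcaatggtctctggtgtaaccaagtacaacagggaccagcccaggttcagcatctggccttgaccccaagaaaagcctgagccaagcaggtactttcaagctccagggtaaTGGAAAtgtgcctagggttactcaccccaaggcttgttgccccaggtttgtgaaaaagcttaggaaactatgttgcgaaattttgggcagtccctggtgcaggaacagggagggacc
The Efnb2 stretch, with a GC content of 72.0%, held neither of these motifs, nor the PU.1 core GAGGAA or the STAT5 motif TTCNNNGAA. The Lif window held one AP-1 match, TGACTCA, from position -228, and the C3 window one NFAT match from position -117, both counted from the transcription start. Promoter windows of 300 bases were found for 8 of the 10 members, 14 windows in all because some genes have several starts. The AP-1 motif was in 4 of these 14 windows (members Lif, Sphk1 and Sema4d) and in 7.81% of all 32851 windows of this length. The NFAT core was in 5 of 14 (21.4% of all windows), the PU.1 core in 2 of 14 (28.3%) and the STAT5 motif in 2 of 14 (8.3%), but Sphk1 has overlapping windows. Its pairs of AP-1, PU.1 and STAT5 matches, and one pair of its NFAT matches, are each a single genomic site counted in both windows. A match describes letters in a window and was not tested as a binding site.

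Before the comparisons, some facts on the libraries as a whole are needed. Total counts were 24211724 to 35773313 per library. Ptprc was at 454 ± 28.5 CPM (SD, n = 4) in WT and 38.7 ± 6.45 CPM in Ptprc KO, and at 401 ± 129 CPM in FLT3 ITD and 64.8 ± 15.3 CPM in the double mutant, and no library labelled Ptprc KO reached the range of the others. CPM are counts scaled to the TMM-adjusted library size. Defining osteoclast markers were present in every library: the summed level of 10 markers was 29500 to 38000 CPM in WT, 25000 to 64300 in Ptprc KO, 15800 to 55100 in FLT3 ITD and 8510 to 46600 in the double mutant. 3 libraries stood apart from others of their genotype. FLT3 ITD replicate 4 had the lowest osteoclast marker level of its group, replicate 3 of the double mutant had the highest of its group, and FLT3 ITD replicate 2 differed in how its values depended on gene length (Spearman rho -0.46 across genes, against -0.18 in FLT3 ITD replicate 4 and 0.04 to 0.18 in each of the rest). Replicates 1 and 3 of FLT3 ITD were far closer to each other than any other pair but differed by more than sampling noise (chi-square per gene 2.77, next pair 13), and both were kept. Macrophage markers were not low, as 5 of them summed to 2400 to 5460 CPM over all libraries. Levels of the following cell types were lower. Over all libraries the summed level was 14.3 to 69.5 CPM for 6 endothelial markers. It was 5.04 to 323 CPM for 5 megakaryocyte and platelet markers (Gp9 at 0 throughout). For 7 neutrophil markers it was 0.159 to 184 CPM, and for 7 T and B cell markers 0.173 to 47.8 CPM. In bulk RNA, fewer osteoclasts in a culture and less RNA of a gene per osteoclast cannot be told apart.

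On the length-scaled TPM of the deposited table, Sema4d and Pdgfb were the most abundant coupling factors. Their means over the 16 libraries were 313 ± 71.3 and 281 ± 60.3 TPM (SD), and C3 followed at 98.6 ± 69.4 TPM. Lif (21.9 ± 12.1 TPM), Sphk1 (12.5 ± 10.5 TPM) and Efnb2 (9.25 ± 5.82 TPM) were lower. Cthrc1 was at 1.17 ± 0.76 TPM, and Wnt10b, Bmp6 and Slit3 were at or under 0.078 TPM on average. Sema4d ranked at place 467 and Pdgfb at place 538 of the 21936 genes by mean TPM, Cthrc1 at place 10800. The ratio of the highest to the lowest library on the CPM scale was 2.01 for Sema4d and 2.93 for Pdgfb, but 13.9 for Lif, 14.9 for Efnb2, 23.4 for C3 and 43.2 for Sphk1.

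Efnb2 (chr8:8617434-8661242, GRCm38, minus strand) had low values in 3 of 4 double mutant cultures and in 1 FLT3 ITD culture. In WT replicates 1 to 4 it stood at 16.4, 24.3, 12.5 and 17.7 CPM, and in Ptprc KO at 12.8, 36.5, 38.4 and 11.6 CPM. The FLT3 ITD values were 34.9, 30.8, 35.5 and 5.08 CPM, and those of the double mutant 3.74, 5.22, 21.2 and 2.58 CPM. The groups overlapped in every pair. FLT3 ITD replicate 4 lay among the double mutants, and double mutant replicate 3 lay within the WT range. Group means were 26.6 ± 14.5 CPM in FLT3 ITD, 24.8 ± 14.6 in Ptprc KO, 17.7 ± 4.91 in WT and 8.19 ± 8.76 in the double mutant (SD, n = 4). Only the step from WT to the double mutant, 9.51 CPM, was larger than the bigger SD of the neighbours compared.

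Lif (chr11:4257557-4272514, plus strand) showed the same 2 libraries apart from the rest of their groups. It stood at 14.2, 25.6, 30.0 and 25.8 CPM in WT, and at 23.0, 48.0, 49.9 and 26.9 CPM in Ptprc KO. In FLT3 ITD the values were 45.5, 57.6, 44.9 and 12.5 CPM, and in the double mutant 5.64, 9.34, 45.5 and 4.14 CPM. Replicates 1, 2 and 4 of the double mutant were lower than every library of the other genotypes, and replicate 3 equalled FLT3 ITD replicate 1. The group means ran from 40.1 ± 19.3 CPM in FLT3 ITD through 37.0 ± 14.0 in Ptprc KO and 23.9 ± 6.75 in WT to 16.2 ± 19.7 in the double mutant, and no neighbouring pair in that order differed by more than its larger SD.

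Sphk1 (chr11:116530925-116536674, plus strand) spanned the widest range of the members with a mean above 1 CPM. Its WT values were 12.8, 12, 7.01 and 12.7 CPM, and its Ptprc KO values 12.1, 37.8, 40.9 and 4.39 CPM. FLT3 ITD cultures had 35.3, 58.3, 31.5 and 2.83 CPM, and double mutant cultures 2.57, 2.94, 19.7 and 1.35 CPM. In each genotype other than WT the high and low cultures were the same ones as for Efnb2 and Lif. Group means were 32.0 ± 22.8 CPM in FLT3 ITD, 23.8 ± 18.3 in Ptprc KO, 11.1 ± 2.76 in WT and 6.65 ± 8.75 in the double mutant, with no step between neighbours beyond the larger SD. An exon of Sphk1 overlaps the annotated antisense gene Gm29292, and no source used here says whether the counting used strand, so Sphk1 counts could include antisense reads.

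Sema4d (chr13:51685529-51793747, minus strand) was the steadiest member. It stood at 802, 796, 579 and 665 CPM in WT, at 703, 910, 951 and 472 in Ptprc KO, at 926, 691, 891 and 542 in FLT3 ITD, and at 578, 632, 791 and 597 in the double mutant. All pairs of genotypes overlapped, and no difference of group means exceeded the larger SD (means 650 ± 96.7 to 763 ± 180 CPM, n = 4).

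C3 (chr17:57203970-57228136, minus strand), the central complement protein, had its highest group mean in the double mutant and was low where Efnb2 was high. Its values were 174, 55.9, 209 and 105 CPM in WT and 132, 58.1, 34.3 and 270 CPM in Ptprc KO. In FLT3 ITD they were 49.0, 15.4, 54.1 and 258 CPM, and in the double mutant 361, 320, 140 and 170 CPM. FLT3 ITD replicate 4 was again the culture that resembled the double mutants, and through it the 2 groups overlapped. The double mutant range also overlapped those of WT and Ptprc KO. Means were 248 ± 109 CPM in the double mutant, 136 ± 68.8 in WT, 124 ± 106 in Ptprc KO and 94.2 ± 111 in FLT3 ITD.

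Pdgfb (chr15:79995874-80014977, minus strand) stood at 291, 303, 348 and 275 CPM in WT, and at 289, 459, 449 and 373 CPM in Ptprc KO. FLT3 ITD cultures had 400, 447, 379 and 519 CPM, and double mutant cultures 193, 492, 327 and 177 CPM. Every FLT3 ITD library was above every WT library, with means of 436 ± 61.9 against 304 ± 31.1 CPM, and other pairs of genotypes overlapped. Of the 7 tested members Pdgfb alone had separate ranges in FLT3 ITD and WT, as did 6.09% of all genes tested. Unlike Efnb2, Lif and Sphk1, Pdgfb was at its highest FLT3 ITD value in replicate 4 and at its highest double mutant value in replicate 2.

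Cthrc1 (chr15:39076932-39087121, plus strand), which encodes a secreted collagen triple helix repeat protein, was measured on few reads. It had 62 counts over the 4 WT libraries (13 to 18 each), 88 over Ptprc KO (10 to 40) and 88 over FLT3 ITD (19 to 25), but 20 over the double mutant (1 to 11). On the CPM scale the double mutant range of 0.0306 to 0.38 lay below the whole WT range (0.447 to 0.622) and the whole FLT3 ITD range (0.595 to 0.953), and overlapped that of Ptprc KO (0.301 to 1.75). It was the 1 member of the 7 with ranges apart in these pairs, where 5.5% of all genes tested had ranges apart for the double mutant and WT and 8.47% for the double mutant and FLT3 ITD. Replicate 3 of the double mutant, high for Efnb2, Lif and Sphk1, was at 0.195 CPM for Cthrc1 and so low with the rest of its group. Cthrc1 is also made by stromal cells. The summed level of 12 stromal and osteoblast-lineage markers was 15.8 to 53.0 CPM in WT, 8.39 to 18.5 in Ptprc KO, 8.66 to 20.6 in FLT3 ITD and 9.87 to 27.3 in the double mutant, where Ibsp had 0 counts in WT, Ptprc KO and FLT3 ITD, and Lum had 0 counts in the double mutant. Group means of Runx2 were 9.65, 8.09, 8.93 and 13.3 CPM in WT, Ptprc KO, FLT3 ITD and the double mutant. Those of Col1a1 were 6.63 (0.83 to 16.7 over WT libraries), 1.08, 0.798 and 1.2 CPM. Col1a2, Col3a1, Sparc and Postn were also highest in WT by group mean. Dcn was highest in the double mutant (2.01 CPM, against 0.802 in WT). The part of stromal cells in the Cthrc1 values was not tested.

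The remaining 3 members were near the detection limit and were not tested. Slit3 (chr11:35121224-35708507), a secreted guidance factor, had 7 counts over WT and 5 over Ptprc KO, and 0 counts in all 8 libraries that carry the FLT3 ITD. With 3 counts in place of 0 for each genotype that carries the FLT3 ITD, Slit3 was 2.29-fold higher in WT than in FLT3 ITD. It was 1.88-fold higher in Ptprc KO than in the double mutant. The 3 counts allow for counting error where none were seen, but not for that of the 7 and 5 counts. These ratios are therefore no lower bounds, and differences between cultures are not covered either. Wnt10b (chr15:98770712-98778150), a Wnt ligand, had 11, 4, 15 and 12 counts over WT, Ptprc KO, FLT3 ITD and the double mutant, with 8 of the last 12 in 1 library. Bmp6 (chr13:38345107-38500302), a bone morphogenetic protein, had 2, 2, 2 and 1 counts, and 10 of 16 libraries had none. An exon of Bmp6 overlaps Txndc5 on the opposite strand, a gene with 55604 counts, so even these few reads are uncertain.

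**Figure D1:**
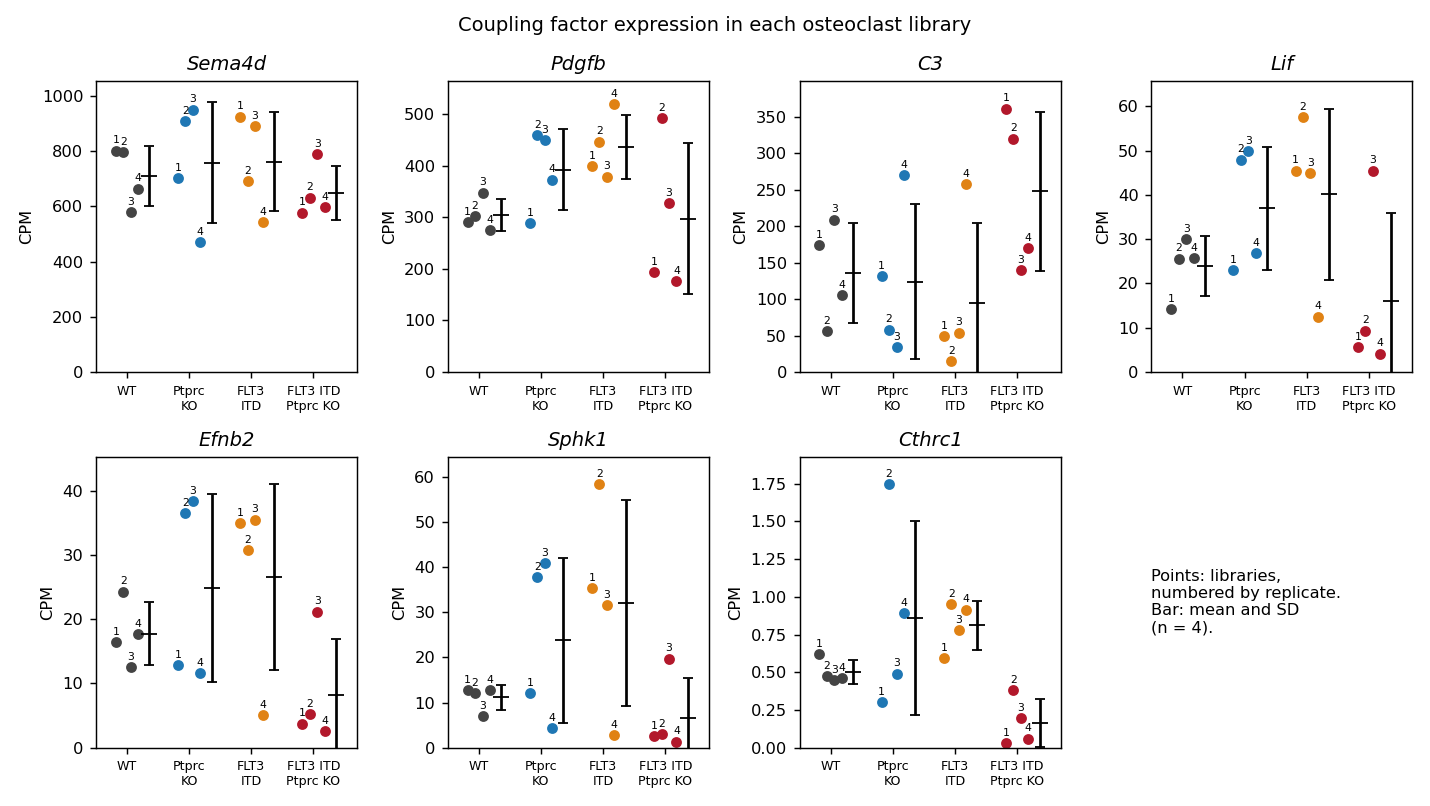
CPM (linear axes from 0) of the 7 tested coupling factors in each library, numbered by replicate, with the mean and SD (n = 4) beside each genotype, error bars cut at 0. FLT3 ITD replicate 4 sits low and double mutant replicate 3 high for Efnb2, Lif and Sphk1, while all 4 double mutant libraries are low for Cthrc1.

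The genotypes were compared on counts with edgeR's quasi-likelihood test, fitted over all 16 libraries and all genes, and adjusted by the Benjamini-Hochberg method over the 12093 genes tested. A gene was called at an adjusted p under 0.05. No tested member was called in any comparison of genotypes, and few other genes were. The test for a difference between any of the 4 genotypes called 0 of 7 members against 0.223% of all genes, and at an unadjusted p under 0.05 it counted 1 member, Cthrc1, against 12.5% of all genes. The lowest adjusted p of that test among the members was 0.293, for Cthrc1. DESeq2, another count test, called Cthrc1 alone (adjusted p = 0.03), with 2.95% of all genes. It was run without the filter on low counts. Its shares, here and below, are therefore of 16502 genes, with all 10 members. Genes it gave no adjusted p, among them Bmp6 and Slit3, count as not called. The voom method of limma, with weights for library quality, called all 7 members and 63.3% of all genes.

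FLT3 ITD and WT were compared to see the effect of the FLT3 change with CD45 present. edgeR called 0 of 7 members (0.0413% of all genes were called), and 0 of 7 had an unadjusted p under 0.05 (8.45% of all genes). Log2 fold changes of the members had a median of 0.59, against 0.04 over all genes tested, with 6 of 7 above 0. The highest was that of Sphk1, 1.52 (SE 0.90, adjusted p = 0.615), and Pdgfb had 0.52 (SE 0.27, adjusted p = 0.605). C3 alone was below 0, at -0.53 (SE 0.76). DESeq2 called 0 of the members, while voom with quality weights called 6, all but Cthrc1, with 15.7% of all genes.

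Ptprc KO and WT were compared to see the loss of CD45 with a normal Flt3 gene. edgeR called 0 of 7 members (0.0331% of all genes), and 0 of 7 had an unadjusted p under 0.05 (0.843% of all genes). Members had a median log2 fold change of 0.49 against 0.02 over all genes, from -0.14 for C3 (SE 0.76) to 1.1 for Sphk1 (SE 0.90). Every member's adjusted p was 1. DESeq2 called 0 members, and voom with quality weights called 2, Lif and Pdgfb, with 3.99% of all genes.

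The double mutant and FLT3 ITD were compared to see the loss of CD45 where FLT3 is active. 6 of the 7 members had lower fitted levels in the double mutant and C3 a higher one, with a median log2 fold change of -1.31 against 0.03 over all genes. edgeR called 0 of 7 (0.00827% of all genes), and at an unadjusted p under 0.05 it counted 3, Cthrc1, Efnb2 and Sphk1, against 25.7% of all genes. The log2 fold change was -2.28 for Cthrc1 (SE 0.63, adjusted p = 0.107), -1.70 for Efnb2 (SE 0.69, adjusted p = 0.153) and -2.27 for Sphk1 (SE 0.93, adjusted p = 0.155). For Lif it was -1.31 (SE 0.65, adjusted p = 0.216), for C3 1.40 (SE 0.77, adjusted p = 0.255), for Pdgfb -0.55 (SE 0.27, adjusted p = 0.209) and for Sema4d -0.23 (SE 0.23, adjusted p = 0.511). For Cthrc1 the fitted double mutant level was 0.206 times that of FLT3 ITD, and for C3 it was 2.63 times. DESeq2 called 1 member, Cthrc1 (log2 fold change -2.33, adjusted p = 0.012), with 5.97% of all genes, and voom with quality weights called all 7, with 57.9%.

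The same comparison depended on 1 library of each group. Without FLT3 ITD replicate 4, Efnb2 (log2 fold change -2.04, SE 0.62, adjusted p = 0.045), Sphk1 (-2.65, SE 0.84, adjusted p = 0.049) and Cthrc1 (-2.21, SE 0.68, adjusted p = 0.045) were called lower in the double mutant by edgeR, and C3 was called higher (2.65, SE 0.72, adjusted p = 0.036). With that library out, 14.7% of all genes were called. Without replicate 3 of the double mutant, Efnb2 (-2.79, SE 0.64, adjusted p = 0.028), Lif (-2.66, SE 0.50, adjusted p = 0.024) and Sphk1 (-3.81, SE 0.92, adjusted p = 0.033) were called lower by edgeR, along with 10.8% of all genes. Leaving out the 3 libraries that stand apart together gave calls for the same 3 members, with 21.8% of all genes. Those libraries were chosen because they stood apart in these data, so values without them are no independent support. Cthrc1 had a value of -2.37 without double mutant replicate 3 (adjusted p = 0.052) and -2.14 without the 3 libraries (adjusted p = 0.086), and over all 16 libraries left out in turn it ranged from -3.05 to -1.93.

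**Figure D2:**
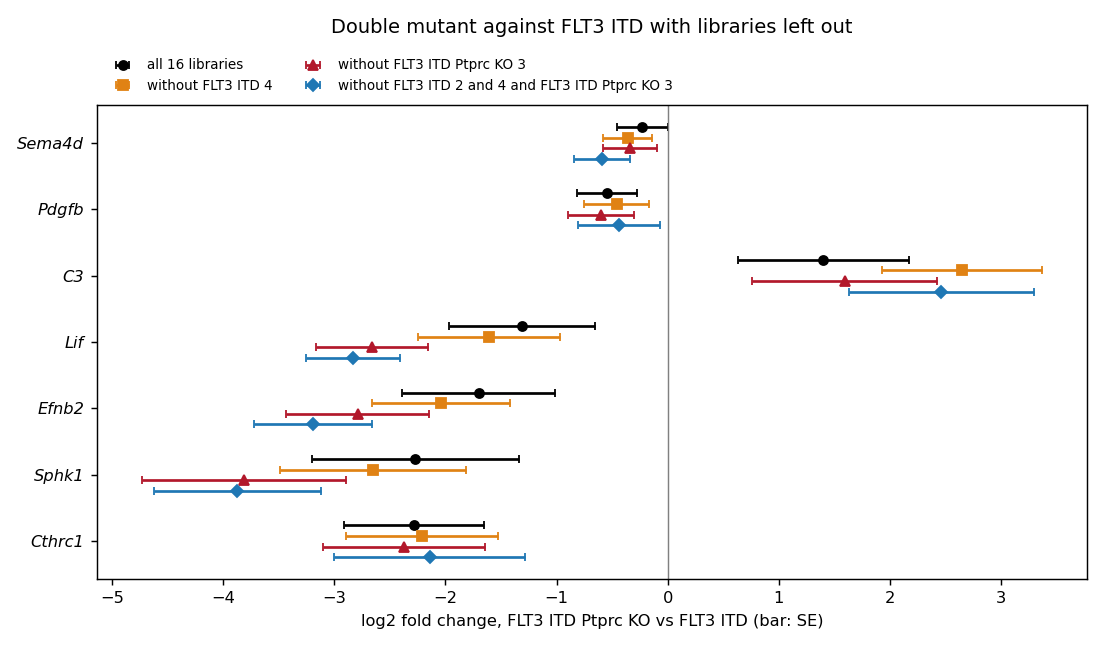
Log2 fold change (edgeR, bars are SE) of the double mutant against FLT3 ITD for each tested member, with all 16 libraries and with libraries left out. Efnb2, Lif and Sphk1 move further below 0 without double mutant replicate 3, C3 moves further above 0 without FLT3 ITD replicate 4, and Cthrc1 keeps values from -2.37 to -2.14.

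The double mutant and Ptprc KO were compared to see the FLT3 change where CD45 is missing. edgeR called 0 of 7 members (0.091% of all genes), and at an unadjusted p under 0.05 it counted 2, Cthrc1 and Efnb2, against 17.8% of all genes. Both had lower fitted levels in the double mutant, with -2.35 log2 units for Cthrc1 (SE 0.63, adjusted p = 0.156) and -1.60 for Efnb2 (SE 0.69, adjusted p = 0.27). The median over the members was -1.19, against 0.04 over all genes. Without double mutant replicate 3, edgeR called Efnb2 (-2.69, adjusted p = 0.032), Lif (-2.54, adjusted p = 0.02) and Sphk1 (-3.38, adjusted p = 0.045), with 6.45% of all genes called. DESeq2 called Cthrc1 alone (adjusted p = 0.012), with 2.08% of all genes, and voom with quality weights called all 7, with 57.6% of all genes.

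The double mutant and WT were compared to see both changes together. edgeR called 0 of 7 members (0.108% of all genes), and 1 member, Cthrc1, had an unadjusted p under 0.05 (7.89% of all genes). Its fitted difference was -1.59 log2 units (SE 0.63, adjusted p = 0.59). Efnb2 had -1.11 (SE 0.68, adjusted p = 0.601), C3 had 0.87 (SE 0.77, adjusted p = 0.636), and Pdgfb was close to 0 at -0.03 (SE 0.27). The median was -0.57, against 0.05 over all genes. DESeq2 called 0 members, and voom with quality weights called 4, with 32.2% of all genes. With the 3 libraries that stand apart left out, edgeR called Efnb2 (-2.20, adjusted p = 0.026) and Lif (-1.91, adjusted p = 0.019), with 9.26% of all genes called.

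The interaction asks whether the loss of CD45 changes expression by a different amount with and without the FLT3 ITD, as the double mutant minus FLT3 ITD less Ptprc KO minus WT. edgeR called 0 of 7 members (0.00827% of all genes). At an unadjusted p under 0.05 it counted 4, Cthrc1, Sphk1, Efnb2 and Pdgfb, against 17.5% of all genes, and all 4 had negative values. Sphk1 had an interaction of -3.36 (SE 1.28, adjusted p = 0.264), Cthrc1 of -3.03 (SE 0.86, adjusted p = 0.252), Efnb2 of -2.18 (SE 0.96, adjusted p = 0.272) and Pdgfb of -0.92 (SE 0.38, adjusted p = 0.269), all in log2 units. DESeq2 called Cthrc1 (adjusted p = 0.036) among 174 of 16502 genes, voom with quality weights called all 7, with 60.2% of all genes, and edgeR without double mutant replicate 3 called Lif (-3.28, adjusted p = 0.046), with 0.459% of all genes.

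**Figure D3:**
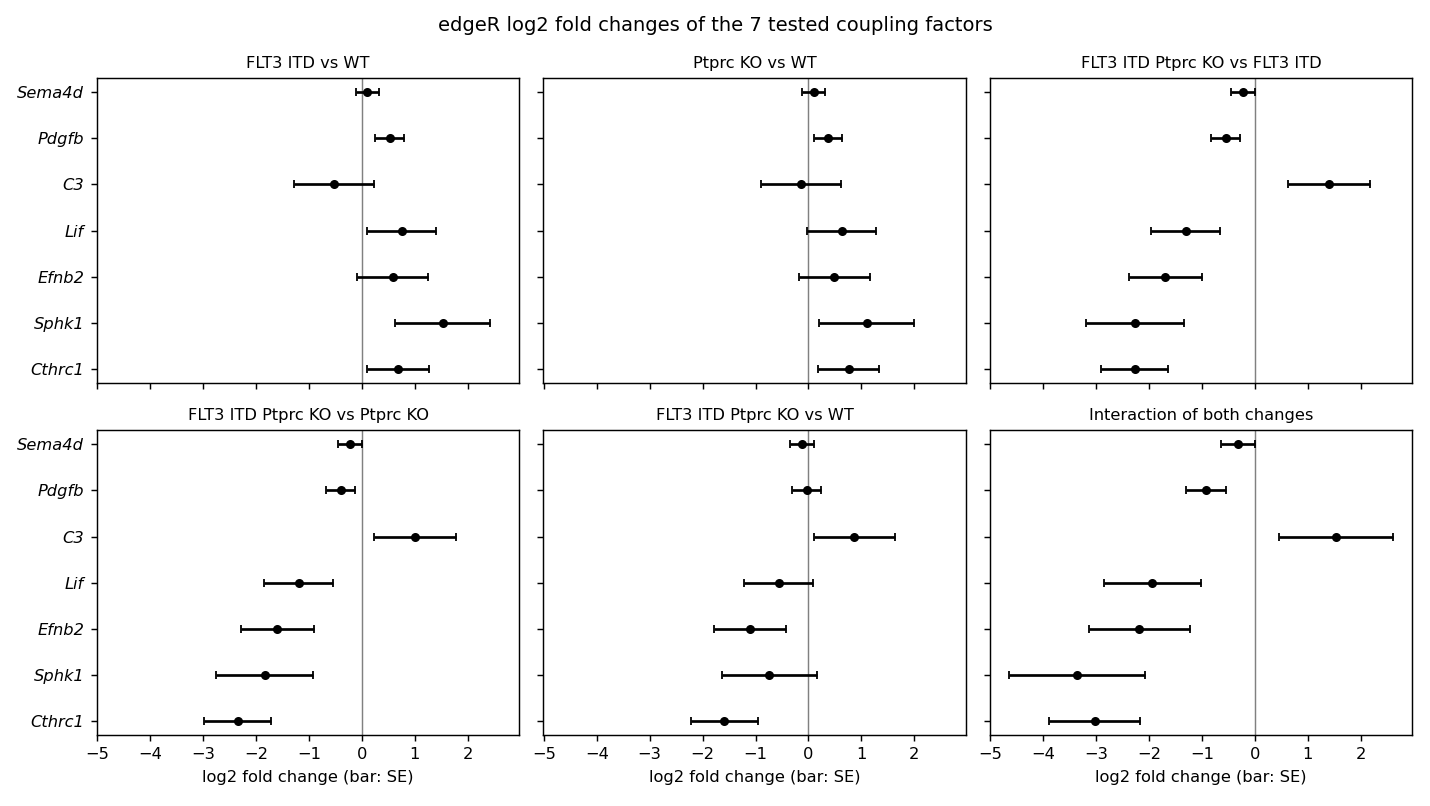
Log2 fold changes (points) with SE (bars) from edgeR for the 7 tested members in the 5 comparisons of genotypes and the interaction. Values for all tested members but C3 lie above 0 in both single mutants and below 0 in all comparisons of the double mutant. Some, such as that of Pdgfb in the double mutant against WT, lie nearer to 0 than their SE. The comparisons share libraries, and no value passed an adjusted p of 0.05.

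Cultures of 1 genotype differed in how strongly they expressed osteoclast genes, and the coupling factors were set against that level. A resorption score averages log2 CPM over 8 genes of the resorbing machinery, Ctsk, Acp5, Mmp9, Car2, Atp6v0d2, Clcn7, Tcirg1 and Ostm1, none of which is a coupling factor. It was 10.5 to 10.9 in WT, 10.3 to 11.6 in Ptprc KO, 9.75 to 11.4 in FLT3 ITD and 8.96 to 10.9 in the double mutant. FLT3 ITD replicate 4 had the lowest score of its genotype, 9.75, and double mutant replicate 3 the highest of its own, 10.9, as for Efnb2, Lif and Sphk1. With the 4 genotype means in the fit, so that only differences between cultures of 1 genotype enter, edgeR called a slope on the score for 5 of the 7 members. That test called 42.7% of all genes, and 50.1% had an unadjusted p under 0.05, so a slope as such was common in these libraries.

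Efnb2 rose by 1.46 log2 units per unit of score (SE 0.10, adjusted p = 4.66e-07), place 16 of the 12093 genes by p. Sphk1 rose by 1.96 (SE 0.18, adjusted p = 4.23e-06) and Lif by 1.25 (SE 0.15, adjusted p = 3.49e-05). Only 0.364% of all genes had a larger slope than Sphk1, 1.87% a larger one than Efnb2 and 3.0% a larger one than Lif. Sema4d had a shallow slope of 0.36 (SE 0.09, adjusted p = 0.00472). C3 fell by 1.22 per unit (SE 0.26, adjusted p = 0.00221), and 97.2% of all genes had a larger slope. Cthrc1 (0.26, SE 0.33, adjusted p = 0.556) and Pdgfb (0.09, SE 0.15, adjusted p = 0.669) were not called. With the 3 libraries that stand apart left out, Lif was no longer called (slope 0.78, SE 0.28, adjusted p = 0.072), while Efnb2 (1.41), Sphk1 (1.94), Sema4d (0.58) and C3 (-1.81) were.

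Across cultures of all genotypes, with the near-identical FLT3 ITD replicates 1 and 3 averaged to give 15 points, Efnb2 followed the score with a Pearson r of 0.99 and a Spearman rho of 0.98. The permutation p-values were 1e-05 each, the smallest that 100000 resamples can give (adjusted over the 7 members, 2e-05 and 3e-05). Resampling shuffled cultures over all genotypes, so genotype differences enter every permutation p given here. Only the 7 members were put to this test, so it has no share of all genes beside it. Sphk1 had r 0.95 and rho 0.95 (permutation p = 1e-05 each) and Lif r 0.94 and rho 0.90 (permutation p = 1e-05 and 4e-05). Sema4d had r 0.71 and rho 0.80 (permutation p = 0.003 and 0.00061, adjusted 0.0043 and 0.00085). C3 had r -0.80 and rho -0.85 (permutation p = 0.00051 and 0.00012, adjusted 0.00089 and 0.00021). Without the 2 cultures farthest from the median score, double mutant replicates 1 and 4, r was 0.98 for Efnb2, 0.94 for Sphk1, 0.90 for Lif, 0.72 for Sema4d and -0.84 for C3. For Cthrc1, r was 0.66 and rho 0.57 (permutation p = 0.007 and 0.03, adjusted 0.0081 and 0.035), but without those 2 cultures r was 0.26, and within genotypes 0.30, so that relation rests on them. Pdgfb had r 0.47 and rho 0.36 (permutation p = 0.078 and 0.19), and r was -0.13 without the 2 cultures. Within genotypes, as deviations from group means, r was 0.98 for Efnb2, 0.96 for Sphk1, 0.92 for Lif, 0.78 for Sema4d and -0.77 for C3.

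**Figure D4:**
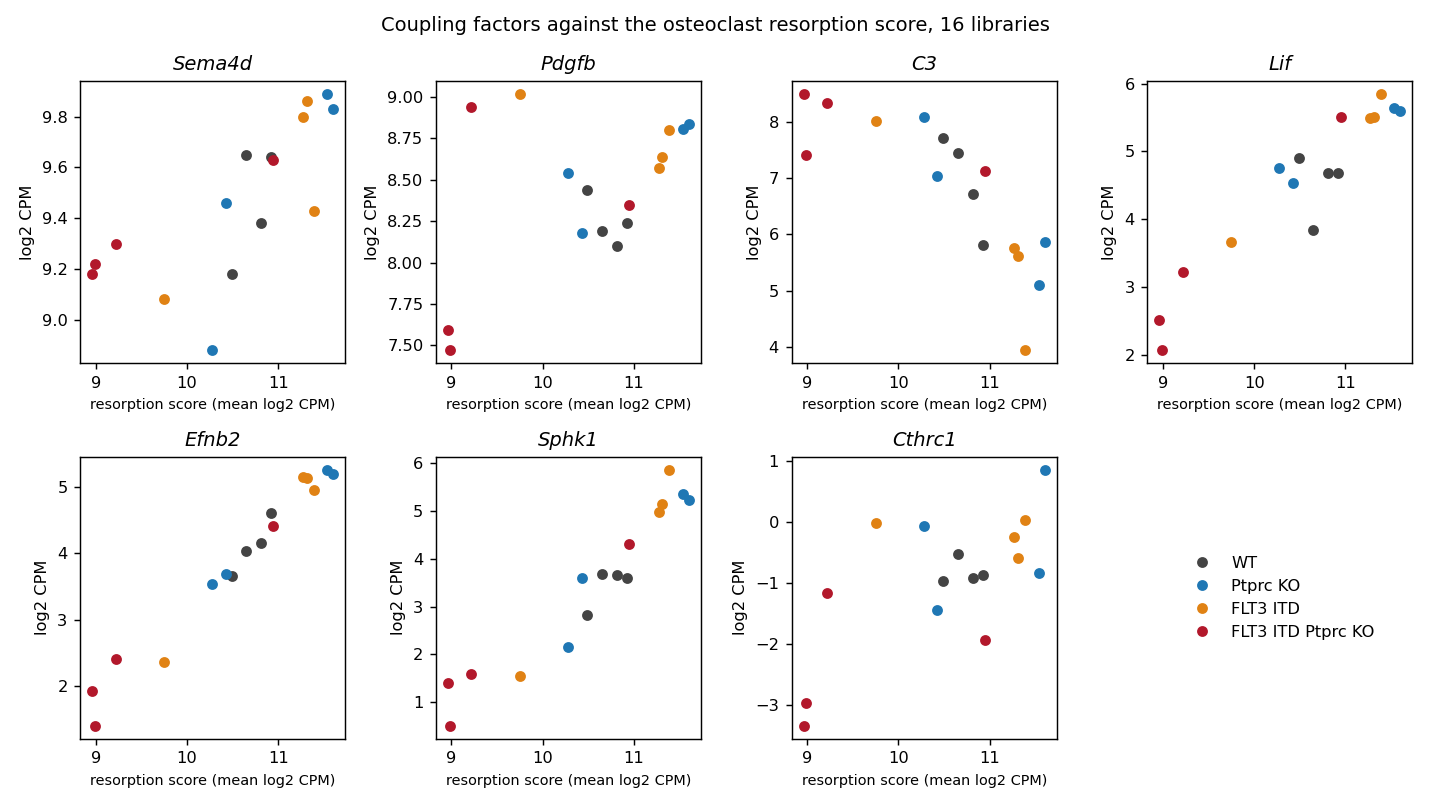
Log2 CPM of each tested member against the resorption score (mean log2 CPM of 8 resorption genes) in the 16 libraries, coloured by genotype. Over the 16 libraries Efnb2, Sphk1 and Lif are higher where the score is higher and C3 is lower, and the double mutant with a score near 10.9 lies within the WT range for Efnb2 but low for Cthrc1.

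For each member with a mean of at least 5 CPM, the genes most alike in pattern were taken by Pearson r of log2 CPM over the 16 libraries among 9511 genes of that level. The closest to Efnb2 was Atp6v1a, a subunit of the proton-pumping vacuolar ATPase (r 0.991), followed by Slc16a7, a monocarboxylate transporter (0.985), and Pgpep1 (0.984). Sphk1 was closest to Agap3 (0.983), Prkag2 (0.978), a regulatory subunit of AMP-activated protein kinase, and Cobll1 (0.977). Lif was closest to Whrn (0.974), Ank, a pyrophosphate transporter that restrains mineralization (0.963), and Slc39a13, a zinc transporter (0.957). C3 was closest to Arhgap30 (0.968), Nfic (0.967) and Ncoa5 (0.967), Sema4d to Arid3a (0.965), Med25 (0.948) and Zkscan17 (0.945), and Pdgfb to Dlgap4 (0.942), Itm2c (0.931) and Zfand3 (0.924). These are descriptions over libraries that share genotype and culture state.

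Receptors for these signals were present in the cultures as well. Of 32 receptors and co-receptors listed, 24 were tested. Plxnb2, a plexin that binds class 4 semaphorins, was at 272 TPM on average, C3ar1, the receptor of C3a, at 185 TPM, Cd72, a receptor of Sema4d on immune cells, at 106 TPM, and Il6st, the shared signalling chain of the LIF receptor, at 27.0 TPM. In the 5 comparisons of genotypes and the interaction, edgeR called 1 receptor once: Epha4, an Eph receptor that also binds ephrin-B ligands, fell in the double mutant against Ptprc KO (log2 fold change -4.12, SE 0.66, adjusted p = 0.024). Its counts were 17, 46, 23 and 23 in Ptprc KO and 2, 1, 4 and 0 in the double mutant. Those ranges did not overlap, as for 6.33% of all genes tested and 0 of the 7 members. In WT its counts were 22, 23, 34 and 12, and in FLT3 ITD 12, 6, 16 and 8. DESeq2 also called it lower in the double mutant against FLT3 ITD and WT, with 5.97% and 0.8% of all genes called. At an unadjusted p under 0.05, edgeR counted 1 receptor of the 24 higher and 5 lower in the double mutant against Ptprc KO. Over all genes, 8.75% were higher and 9.07% lower there. DESeq2 called 0 to 4 of the 24 receptors per comparison, where it called 0.0727% to 5.97% of all genes. With quality weights, voom called 1 to 12 of them, where it called 3.99% to 60.2% of all genes. Leaving out a WT or FLT3 ITD library bears little on Epha4 in the double mutant against Ptprc KO, with values of -4.13 to -4.12. Those fits are among the 25 alternatives, of which the Epha4 call there held in 18 (adjusted p 5.2e-06 to 0.24). It was lost in edgeR without Ptprc KO replicate 2 (0.065) or 3 (0.062) and without double mutant replicate 1 (0.12), 2 (0.1) or 4 (0.06). With all libraries of both genotypes, it was lost in an edgeR fit of only these groups (0.24). It was also lost in limma on log2(TPM + 1) with no filter (0.087).

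Ligands and enzymes of the same families did not pass edgeR's test in any comparison of genotypes (0 of 16 tested, of 24 listed). Nor did other osteoclast-derived coupling signals (0 of 9 tested, of 10 listed) or genes of processing, release and breakdown (0 of 14 tested, of 18 listed). The lists are not separate: Ctf1, Osm, Efna2 and Pdgfa are in both the family list and that of other coupling signals. The family list also holds a receptor, C5ar1. At an unadjusted p under 0.05 the double mutant against Ptprc KO counted 4 higher and 3 lower of the 16, 0 higher and 1 lower of the 9, and 1 higher and 4 lower of the 14, at least as many as any other comparison. Over all genes that comparison had 8.75% higher and 9.07% lower, 17.8% in all. DESeq2 called 0 to 2, 0 and 0 to 1 of these per comparison, and voom with quality weights 0 to 11, 0 to 6 and 0 to 12. Of all genes, DESeq2 called 0.0727% to 5.97% per comparison and voom 3.99% to 60.2%. Among the most abundant were C5ar1 (267 TPM), the receptor of complement C5a, Sphk2 (90.3 TPM), the other sphingosine kinase, Tgfb1 (181 TPM), released from matrix and cells during resorption, and Mmp14 (434 TPM), a membrane metalloproteinase.

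On the resorption score, 21.2% of all genes rose and 21.4% fell. Of the 24 receptors 5 rose and 7 fell, of the 16 family genes 5 and 4, of the 9 other coupling signals 2 and 4, and of the 14 processing genes 3 and 5. Spns2, the exporter of sphingosine 1-phosphate, rose with a slope of 1.35 (SE 0.07, adjusted p = 4.93e-08), like Sphk1, and Efnb1, the paralog of Efnb2, with 0.69 (SE 0.11, adjusted p = 0.000417). C3ar1 fell with -1.33 (SE 0.29, adjusted p = 0.00264) and C5ar1 with -1.44 (SE 0.30, adjusted p = 0.00174), like C3. Igf1, a growth factor for osteoblasts, fell with -1.81 (SE 0.41, adjusted p = 0.00318), S1pr1, a receptor of sphingosine 1-phosphate, with -1.76 (SE 0.40, adjusted p = 0.00332), and Sema7a, another semaphorin, rose with 0.90 (SE 0.12, adjusted p = 9.28e-05). Macrophage markers, 5 genes with a summed level of 2400 to 5460 CPM over all libraries, included 3 that fell and 0 that rose with the score, and of the 10 osteoclast markers, which share genes with the score, all 10 rose. Of the stromal and osteoblast-lineage markers, 5 of the 7 tested fell. The part of these cell types in the slopes of the coupling factors was not tested.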

How the data were processed

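RNA from 16 osteoclast cultures was sequenced after poly(A) selection with a strand-specific kit and UMI adaptors, from 500 ng of RNA, per the labels' protocols. Per the submitters' processing notes, the tools included the aligner STAR 2.7.6a and the counter featureCounts 2.0.3, on GRCm38.p6, and UMI-tools 1.1.1 for the molecular identifiers. Their settings and the use of strand are not given in the sources used here. The authors deposited raw counts, whole numbers per gene, and a table of TPM, scaled by the authors for gene length and library total. For Sema4d, Pdgfb, C3, Lif, Sphk1 and Efnb2, deposited TPM were 0.923 to 1.11 times those recomputed from the counts.

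The test on counts was that of edgeR 4.0.16 under R 4.3.3 (filterByExpr, TMM, robust quasi-likelihood fit of 4 group means, 12 residual degrees of freedom, two-sided, Benjamini-Hochberg, threshold 0.05). Log2 CPM used a prior count of 2. Total counts per library were 24211724 to 35773313, and replicates varied with a coefficient of 0.37 (common dispersion 0.137). Members with a mean of at least 1 CPM were given per library and others by counts. Of the fixed lists, genes called and up to 4 of the highest mean CPM could be named. Alternatives were RLE factors, other filters, a replicate block, only the groups compared, DESeq2 1.42.0, voom and TPM fits in limma 3.58.1, other score settings, and libraries left out. The labels give no batch. Gene positions came from GENCODE for GRCm38, with 21894 of 21936 IDs found. The fits were tested on simulated data, which for the comparisons of genotypes held no libraries that stand apart. That test therefore does not cover such libraries. The members and lists were chosen with earlier results of these data known.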

Additional observations from a re-analysis of the deposited data

Results flagged for a closer look

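Within groups of 4 libraries, a culture far from the other 3 on the CPM scale was found in 6 of the 28 groups checked (7 members in 4 genotypes). For a single group chance gives about 1 in 20. The groups share libraries and several members vary together, so the 28 are not separate checks and no excess over chance can be read. Double mutant replicate 3 was high for Efnb2 (21.2 CPM), Lif (45.5 CPM) and Sphk1 (19.7 CPM). FLT3 ITD replicate 4 was low for Efnb2 (5.08 CPM) and high for C3 (258 CPM). WT replicate 3 was low for Sphk1 (7.01 CPM). The resorption scores of these cultures were 10.9, 9.75 and 10.5, the highest, the lowest and the lowest of their genotypes.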

How the results depend on the processing

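No member changed sign past the threshold under any alternative run, and 19 sign changes of uncalled fold changes (10 with 1 library left out, 9 in other settings) were of Sema4d, C3 and Pdgfb. The uncalled slope of Pdgfb was -0.09 with a replicate block. Counts of members called, 0 of 7 in edgeR for each comparison of genotypes, moved with the tool. For FLT3 ITD against WT, Ptprc KO against WT, the double mutant against FLT3 ITD, against Ptprc KO and against WT, the interaction and any genotype, voom with quality weights called 6, 2, 7, 7, 4, 7 and 7 members, and 1898, 482, 6999, 6966, 3898, 7283 and 7660 genes in all. DESeq2 called 1 member in the double mutant against FLT3 ITD (985 genes in all, against 1 in edgeR), 1 against Ptprc KO (344 against 11), 1 in the interaction (174 against 1) and 1 for any genotype (486 against 27). Without the 3 libraries that stand apart, the double mutant comparisons with FLT3 ITD, Ptprc KO and WT, the interaction and any genotype gave 3, 4, 2, 3 and 3 members (2678, 3104, 1139, 1766 and 1330 genes). With 1 library left out, the counts of members ranged from 0 to 4 against FLT3 ITD, 0 to 3 against Ptprc KO and 0 to 1 in the interaction, and counts of all genes from 1 to 1798, 2 to 786 and 0 to 56. Between double mutant and Ptprc KO, 47 genes in all were called with the block, 0 in a fit of only these groups and 3 at a mean count of at least 50. Why these settings differ was not tested.

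The slope on the score was called for 5 members whichever library was left out (3537 to 6048 genes), for 4 in the fit with a replicate block (Sema4d lost, adjusted p = 0.06, 3200 genes), for 4 without the 3 libraries (Lif lost, 2480 genes) and for 6 without group means (Cthrc1 gained, adjusted p = 0.032). The labels do not say whether same-numbered cultures were paired, and the values do not settle it. Correlation was above 0.1 in 12 of 24 same-numbered pairs (-0.63 to 0.85). In 16 of 48 cases a library deviated most like its own number. The replicate block called 0 members in each genotype comparison. Low counts limit Cthrc1, Wnt10b, Bmp6 and Slit3.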
